A study of Mus musculus with 7 samples.

Results

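The genes described here are 10 members of the actin cytoskeleton: the coronins Coro1a, Coro1b, Coro1c and Coro7, the ezrin-radixin-moesin (ERM) genes Ezr, Msn and Rdx, and the actin bundlers Lcp1, Fscn1 and Aif1. They were taken by gene symbol, and all 10 were found among the 23420 genes of the count table. RNA was sequenced from microglia, the resident macrophages of the brain. They came from the cortex at postnatal day 30 and were sorted by the gate CD11b+, CD45low, CX3CR1+. The mutant mice were MG-Srgap2f/f (Tmem119creErt2+ Srgap2f/f; cKO, n = 4), in which a tamoxifen-inducible recombinase expressed from the microglial gene Tmem119 deletes Srgap2, and the controls were WT littermates (Srgap2f/f, n = 3) without the recombinase. Both groups carried the floxed alleles and both received tamoxifen, 75 ug per g of body weight at postnatal days 8 and 10. The recombinase was present in the cKO mice only, so its own effects and those of the deletion cannot be told apart, and the counts do not show in what share of cells Srgap2 was deleted. The question addressed is how microglia lacking Srgap2, which encodes an F-BAR protein that shapes membranes and acts on actin, compare with control microglia in a juvenile brain given no challenge.

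Actin filaments under the plasma membrane drive the surveying processes, ruffles and phagocytic cups of microglia. Coronins bind the sides of filaments, hold back or remove the branching Arp2/3 complex and steer cofilin to old filaments. ERM proteins open when phosphorylated and then tie the cortex to membrane proteins, and bundlers pack filaments side by side into stiff arrays such as filopodia. Several of these genes are typical of white blood cells, and Aif1 encodes Iba1, the antigen most often stained to show microglia.

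Each library came from a separate numbered mouse and held from 27016173 to 35707304 counts, and each of the 10 genes had between 120 and 52426 counts in a library. Levels are given in CPM, a gene's count as a share of its library brought to a common total, with library sizes scaled by TMM factors. Values per library are listed in order of replicate number. Srgap2 was at 344, 257, 275 and 212 CPM for the cKO mice, against 979, 691 and 693 CPM for the WT mice, so every library followed its label. The 10 microglial markers summed to between 51304 and 59834 CPM in cKO libraries and between 60593 and 63505 CPM in WT libraries, and 1 of them, Tmem119, the gene that drives the recombinase, passed the threshold. White blood cells other than microglia also express Coro1a, Lcp1 and Msn. The 9 markers of monocytes and neutrophils summed to between 8.15 and 10.1 CPM in cKO and between 5.88 and 10.5 CPM in WT, with Ltf and Retnlg at 0 in every library. The 7 lymphocyte markers in the table summed to at most 0.41 CPM in cKO and 0.20 CPM in WT. The 7 markers of border-associated macrophages summed to between 66.3 and 131 CPM in cKO and between 72.2 and 110 CPM in WT. Markers of astrocytes summed to between 86.7 and 139.8 CPM in cKO, against 132 to 138 CPM in WT, and those of endothelial and mural cells to between 56.7 and 73.6 CPM in cKO, against 71.1 to 79.2 CPM in WT. The lowest microglial sum and the highest sums for border-associated macrophages and for astrocytes were all in cKO replicate 1. None of the markers of cells other than microglia that could be tested passed the threshold. The part of such cells in the results below was not tested. The X-linked RNA Xist was found in 2 cKO libraries (replicate 2 with 69.4 CPM, replicate 4 with 144 CPM) and 2 WT libraries (replicate 2 with 243 CPM, replicate 3 with 127 CPM), and did not exceed 0.66 CPM elsewhere. The rank correlation, across genes within a library, of the deviation from a gene's mean level with GC content came to −0.50, 0.16, −0.41 and 0.42 for the cKO mice, against −0.0029, 0.067 and 0.23 for the WT mice. In both groups the libraries with Xist had the higher correlations. A split of the libraries by Xist is therefore also a split by GC correlation, and the 2 cannot be told apart.

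None of the 10 genes passed the threshold in cKO against WT, an adjusted p under 0.05 over the 11991 genes tested with edgeR's quasi-likelihood test, where 0.359% of all genes passed, 0.317% higher and 0.0417% lower in cKO. Msn came closest, with a log2 fold change of 0.52 (SE 0.10, adjusted p = 0.058). At an unadjusted p under 0.05, Msn, Lcp1 and Aif1 were higher in cKO, 3 of 10, and none was lower. Of all genes tested, 16.5% had such a p, 9.65% higher and 6.87% lower in cKO. DESeq2 called 2 of the 10, Msn and Lcp1, where it called 4.64% of the 11291 genes to which it gave an adjusted p, and limma-voom called 1, Msn, where it called 0.392%. The fold change was above 0 for 9 of the 10 genes, Rdx being the exception, beside 48.1% of all genes, and the median was 0.24 against −0.01 over all genes tested. Because the genes were chosen with earlier results of these data known, the counts describe them and give no test of the group. In bulk RNA, a difference in the number of cells of a type and a difference in RNA per cell cannot be told apart.

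**Figure D1:**
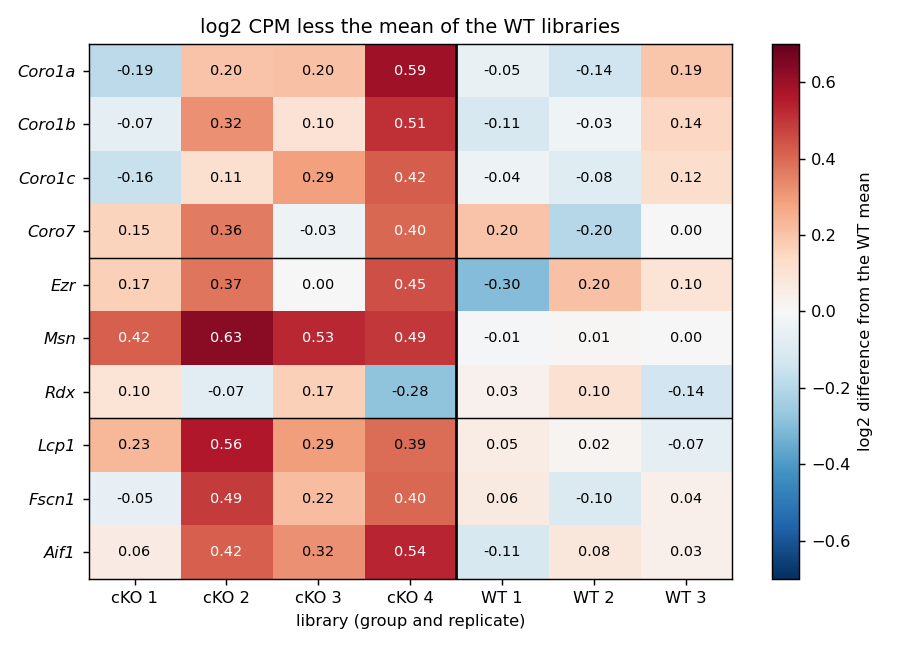
Each cell gives the log2 CPM of a gene (rows) in a library (columns, cKO replicates left of the line and WT replicates right of it) less the mean of the 3 WT libraries. Msn is above its WT mean by 0.42 to 0.63 in all 4 cKO libraries, and cKO replicate 4 is the highest library for 6 of the 10 genes.

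The libraries did not carry the difference equally. The median of the 10 genes lay 0.08, 0.37, 0.21 and 0.44 log2 units from the WT mean for the cKO mice, against −0.02, −0.01 and 0.04 for the WT mice. The median of all genes tested stayed between −0.02 and 0.01 in the same libraries. Within each group the medians of the 10 genes rose in the order of the libraries' correlations with GC content. The part of GC content in this order was not tested. The members above their WT mean numbered 6, 9, 9 and 9 of 10 for the cKO mice, against 4, 5 and 8 of 10 for the WT mice, so by this count cKO replicate 1 and WT replicate 3 were not in the order of their groups. For 9 of the 10 genes the standard deviation in CPM was larger among the cKO libraries than among the WT libraries, Ezr being the exception. The library with the highest level was a cKO library for all 10 genes, and it was cKO replicate 4 for 6 of them. The cKO mice gave 4 of the 7 libraries. For the counts in this paragraph, the shares over all genes tested were not computed.

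**Figure D2:**
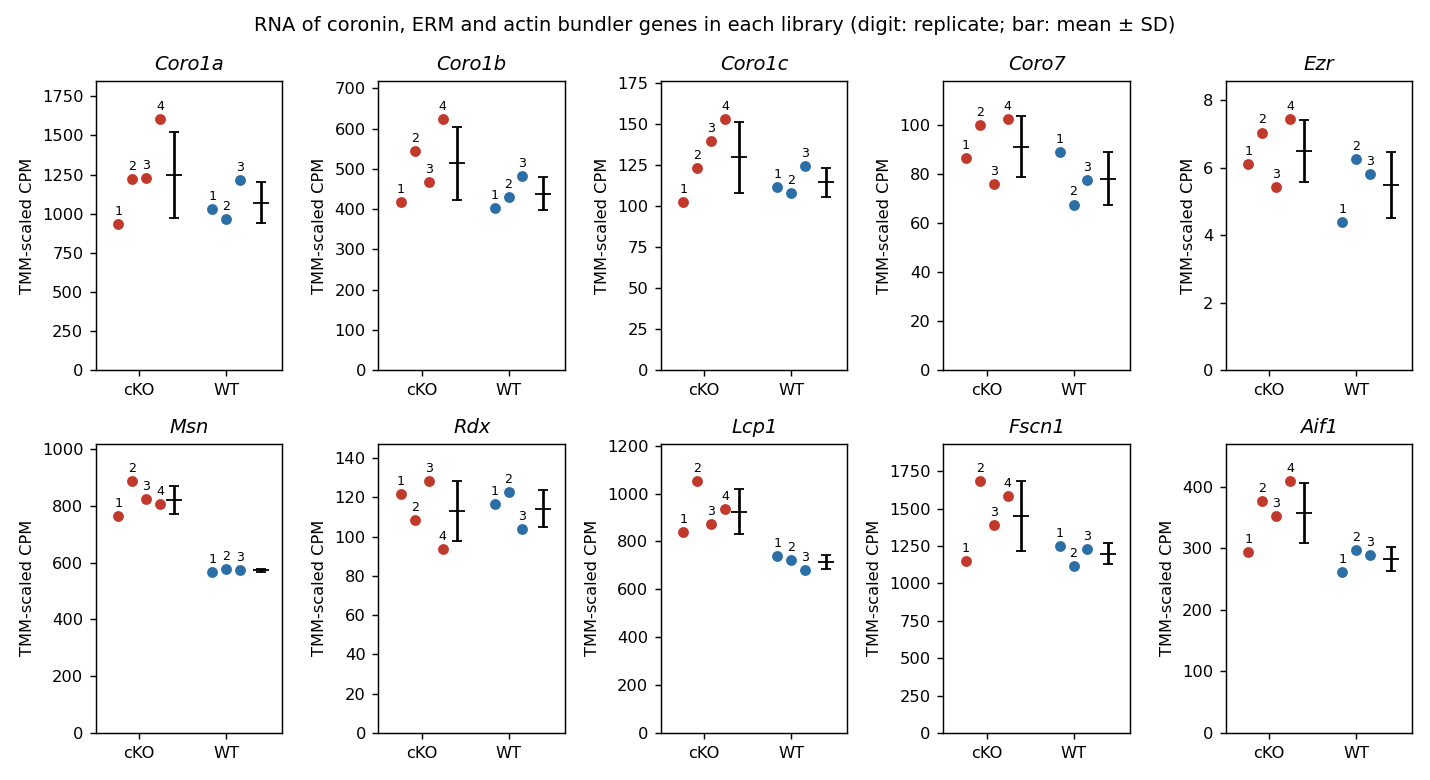
TMM-scaled CPM of each gene (panels, each with its own vertical axis from 0) in cKO libraries (left, red) and WT libraries (right, blue), with the replicate number above each point and the mean ± SD as a bar. The 2 groups are apart for Msn and Lcp1 and overlap for the other 8 genes.

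Moesin was the ERM gene that stood out. Msn, which encodes the main ERM protein of white blood cells, was at 764, 886, 824 and 806 CPM for the cKO mice, against 568, 576 and 573 CPM for the WT mice. All 4 cKO libraries lay above all 3 WT libraries, with a coefficient of variation of 6.17% in cKO and 0.726% in WT. The mean was 820.4 ± 50.6 CPM in cKO (SD, n = 4) and 572 ± 4.16 CPM in WT (SD, n = 3), a ratio of 1.43. Msn ranked 50th of the 11991 genes by p. An exact permutation test of mean log2 CPM (two-sided) gave p = 0.029, the smallest that the 35 divisions of 7 libraries can give. Groups without overlap and with cKO on the higher side made up 8.86% of all genes tested, and those with cKO on the lower side 7.2%; among the members they were 2 of 10 and 0 of 10.

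The Msn gene lies on the X chromosome, and the libraries with Xist were not evenly divided, 2 of 4 in cKO and 2 of 3 in WT. The difference in mean log2 CPM, cKO minus WT, was 0.56 among the libraries with Xist and 0.48 among those without, where WT is represented by 1 library. It was 0.54 among the mice with the lower numbers (cKO replicates 1 and 2, WT replicate 1) and 0.50 among those with the higher numbers (cKO replicates 3 and 4, WT replicates 2 and 3). Of the 19 alternative analyses, 9 put Msn past the threshold, and its log2 fold change stayed between 0.48 and 0.54 in all 19. Leaving out cKO replicate 1 gave 0.54 (adjusted p = 0.027), while leaving out any other library left it short of the threshold, with adjusted p from 0.057 to 0.30.

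Radixin, encoded by Rdx and known from liver, inner ear and other tissues, had a fold change near 0. It was at 122, 108, 128 and 93.6 CPM for the cKO mice, against 116, 122 and 104 CPM for the WT mice, and the groups overlapped throughout. The fitted log2 fold change, −0.02 (SE 0.13, adjusted p = 0.97), turned its sign when cKO replicate 2, cKO replicate 4 or WT replicate 2 was left out. Ezrin, the ERM protein of epithelial microvilli, was scarce. Ezr was at 6.09, 7.04, 5.42 and 7.45 CPM for the cKO mice, against 4.38, 6.25 and 5.80 CPM for the WT mice (log2 fold change 0.25, SE 0.19, adjusted p = 0.57). Its log2 fold change was 0.11 without WT replicate 1 and 0.37 with Xist as covariate. Among libraries with Xist the differences in mean log2 CPM were −0.16 for Rdx and 0.26 for Ezr, and among those without they were 0.10 and 0.39. Between the lower and higher mouse numbers, Rdx gave −0.02 and −0.04 and Ezr 0.57 and 0.08.

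The balance between Msn and Rdx was compared within each library, where scaling cancels but a dependence on GC content does not. The log2 ratio of Msn over Rdx, in CPM, was 2.65, 3.03, 2.69 and 3.11 for the cKO mice, against 2.28, 2.23 and 2.47 for the WT mice. Every cKO library thus lay above every WT library, by a mean of 0.54 (exact permutation p = 0.029, two-sided). After adjustment over the 12 pairs compared within the 3 families the p was 0.34, which is as low as 1 pair alone can reach with 35 divisions. In mean log2 CPM, Msn itself differed by 0.52 and Rdx by −0.02, so this ratio mostly restates the difference in Msn. Among the cKO libraries the ratio rose in the order of the correlations with GC content, whose part was not tested. How often pairs of genes outside the 3 families separate the groups was not computed. The ratio of Msn over Ezr differed by 0.27 (exact permutation p = 0.20) and that of Ezr over Rdx by 0.27 (exact permutation p = 0.37), with overlap in both. When a library was left out, Msn over Rdx differed by 0.46 to 0.61, Msn over Ezr by 0.17 to 0.41 and Ezr over Rdx by 0.11 to 0.42. The other 9 pairs, within the coronins and within the bundlers, differed by at most 0.10 in either direction and overlapped between the groups.

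**Figure D3:**
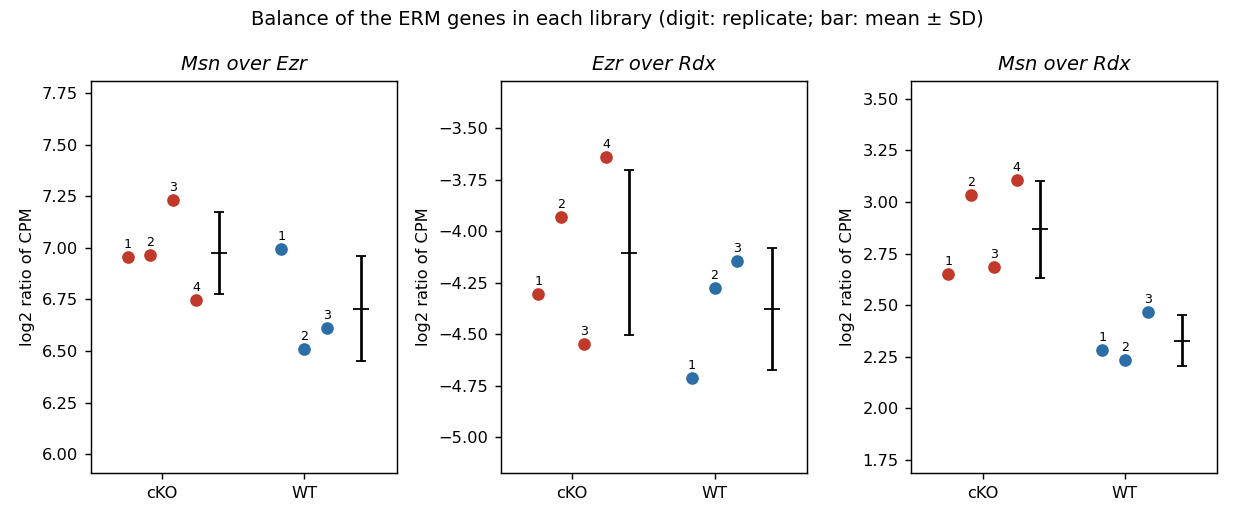
log2 ratio of CPM between the ERM genes in each library, cKO left and WT right, with the replicate number above each point and the mean ± SD as a bar; the 3 panels span equal ranges of the vertical axis. Only Msn over Rdx, from 2.65 to 3.11 in cKO and from 2.23 to 2.47 in WT, has no overlap between the groups.

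The windows before the start sites of the 2 genes that separated the groups, Msn and Lcp1, and of Rdx, an ERM gene whose groups overlapped, are shown so that their letters can be read beside the values. They come from RefSeq on the GRCm38.p6 build and cover the 250 bases before each listed start, read in the direction of the gene. Such windows were found for 9 of the 10 genes, 12 in all, and Coro1b is named only. Capitals mark GAGGAA, the core letters of the site of PU.1, the factor that defines the macrophage lineage, and GGGCGG, the GC box of many housekeeping promoters, each searched on both strands.
Msn (chrX:96095795-96096044, plus strand): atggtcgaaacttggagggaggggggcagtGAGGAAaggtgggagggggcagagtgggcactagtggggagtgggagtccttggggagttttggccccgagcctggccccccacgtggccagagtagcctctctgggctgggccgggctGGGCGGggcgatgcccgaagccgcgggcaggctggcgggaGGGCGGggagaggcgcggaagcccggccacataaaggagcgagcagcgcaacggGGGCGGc
Rdx, upstream start (chr9:52046900-52047149, plus strand): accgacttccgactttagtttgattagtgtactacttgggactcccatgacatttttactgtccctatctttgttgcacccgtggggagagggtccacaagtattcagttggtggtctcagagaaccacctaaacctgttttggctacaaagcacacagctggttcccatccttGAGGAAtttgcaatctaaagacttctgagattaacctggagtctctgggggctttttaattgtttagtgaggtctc
Rdx, downstream start (chr9:52047691-52047940, plus strand): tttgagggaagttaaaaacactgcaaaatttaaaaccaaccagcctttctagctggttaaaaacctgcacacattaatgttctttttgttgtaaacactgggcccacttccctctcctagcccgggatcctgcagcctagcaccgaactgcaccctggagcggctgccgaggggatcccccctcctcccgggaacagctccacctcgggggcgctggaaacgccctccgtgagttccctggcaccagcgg
Lcp1, upstream start (chr14:75130873-75131122, plus strand): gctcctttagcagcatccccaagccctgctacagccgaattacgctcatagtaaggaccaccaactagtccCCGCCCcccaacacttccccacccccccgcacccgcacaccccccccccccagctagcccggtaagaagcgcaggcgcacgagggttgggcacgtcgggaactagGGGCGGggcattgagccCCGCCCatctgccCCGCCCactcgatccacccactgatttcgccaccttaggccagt
Lcp1, downstream start (chr14:75136175-75136424, plus strand): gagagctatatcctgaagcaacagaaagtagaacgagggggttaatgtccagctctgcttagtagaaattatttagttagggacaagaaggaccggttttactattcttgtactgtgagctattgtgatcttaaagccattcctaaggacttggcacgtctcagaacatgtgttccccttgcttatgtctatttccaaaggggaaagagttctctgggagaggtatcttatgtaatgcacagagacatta

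The Msn window held GAGGAA from 220 to 215 bases before the start and GGGCGG at 3 places. The more upstream of the Lcp1 windows held the GC box at 4 places, 3 of them on the opposite strand, and no GAGGAA. The more upstream of the Rdx windows held GAGGAA 76 to 71 bases before the start and no GC box, and the second windows of Lcp1 and of Rdx held neither. Over all 32851 windows of this length, 23.3% held GAGGAA and 32.7% held GGGCGG. Among the 12 windows of the members, 3 held GAGGAA (Aif1, Msn and Rdx) and 5 held GGGCGG (Coro1a, Coro1c, Ezr, Lcp1 and Msn). The CArG box bound by the actin-responsive factor Srf, searched on both strands, was in 0 of the 12 windows and in 1.47% of all windows. TATAAA, searched on the gene's strand, was in the Fscn1 window and in 7.59% of all windows. None of the marked matches overlap each other. A match is a description of the letters, and the counts do not tell which start was used. The bases after the more downstream Rdx start were not found near the start of any GENCODE M21 transcript of Rdx. Those after the other listed starts were found near the start of a transcript of their gene.

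Among the bundlers, Lcp1 encodes L-plastin, which crosslinks filaments in white blood cells. It was at 837, 1050.5, 872 and 934 CPM for the cKO mice, against 738, 721 and 679.6 CPM for the WT mice, with all cKO libraries above all WT libraries. The mean was 924 ± 93.7 CPM in cKO and 713 ± 30.2 CPM in WT (SD, n = 4 and 3), a ratio of 1.30. The log2 fold change of 0.37 (SE 0.11) had an adjusted p of 0.15 in edgeR's test. The difference in mean log2 CPM was 0.50 among libraries with Xist and 0.21 among those without. The two-sided exact permutation p was 0.029, again the smallest possible.

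Aif1, whose product binds calcium and bundles actin in ruffles and phagocytic cups, was at 293, 377, 352 and 409 CPM for the cKO mice, against 261, 297 and 289 CPM for the WT mice. Replicate 1 of cKO fell among the WT libraries and the other 3 lay above them. Its log2 fold change was 0.34 (SE 0.12, adjusted p = 0.20; exact permutation p = 0.086, two-sided). The difference in mean log2 CPM was 0.42 with Xist and 0.30 without. Fscn1 encodes fascin, the bundler of filopodia, which among brain cells is typical of microglia. It was at 1153, 1683, 1393 and 1585 CPM for the cKO mice, against 1252, 1117 and 1228 CPM for the WT mice. Again only cKO replicate 1 fell among the WT libraries. It had a log2 fold change of 0.28 (SE 0.14, adjusted p = 0.33; exact permutation p = 0.17, two-sided). Among libraries with Xist the difference in mean log2 CPM was 0.48 and among those without it was 0.02. By lower and higher mouse numbers the differences were 0.34 and 0.37 for Lcp1, 0.35 and 0.37 for Aif1 and 0.15 and 0.34 for Fscn1.

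**Figure D4:**
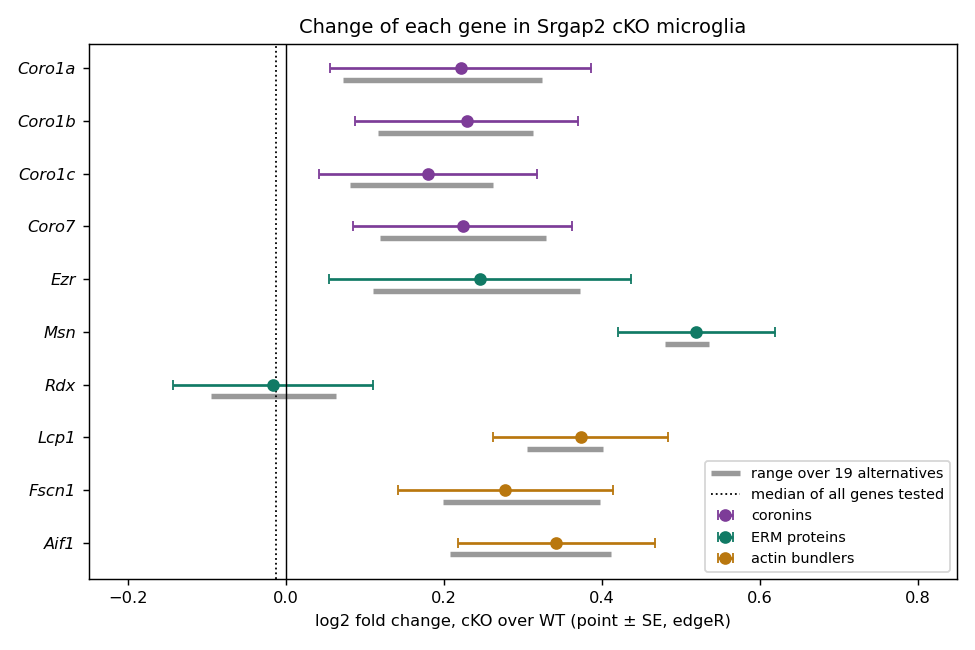
log2 fold change of each gene, cKO over WT, from edgeR with its SE (points and bars, coloured by family), above a grey bar for the range over 19 alternative analyses. Msn has the largest value, 0.52, and the narrowest range, Rdx lies at −0.02, and the dotted line at −0.01 is the median of all genes tested.

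The 4 coronins had log2 fold changes from 0.18 to 0.23, none past the threshold and all with overlapping groups. Coro1a, the coronin of white blood cells, was at 937, 1221, 1226 and 1606 CPM for the cKO mice, against 1028, 966 and 1217 CPM for the WT mice. Its lowest and highest libraries were both cKO. The mean was 1248 ± 275 CPM in cKO and 1071 ± 131 CPM in WT (SD, n = 4 and 3), with a log2 fold change of 0.22 (SE 0.17, adjusted p = 0.55). Without cKO replicate 4 the log2 fold change was 0.07, and without cKO replicate 1 it was 0.32.

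Coro1b, a widely expressed coronin that brings the cofilin-activating phosphatase slingshot to the leading edge, was at 417, 545, 468 and 624 CPM for the cKO mice, against 404, 429 and 483 CPM for the WT mice. Coro1c, another coronin of lamellipodia, was at 102, 123, 139 and 153 CPM for the cKO mice, against 111, 108 and 124 CPM for the WT mice. The groups overlapped for both, and both were lowest among cKO libraries in replicate 1 and highest in replicate 4. Coro7, the coronin of the Golgi apparatus, was at 86.3, 99.8, 75.7 and 102 CPM for the cKO mice, against 89.0, 67.5 and 77.6 CPM for the WT mice. It broke that order, being lowest in cKO replicate 3. The log2 fold changes were 0.23 for Coro1b (SE 0.14, adjusted p = 0.46), 0.18 for Coro1c (SE 0.14, adjusted p = 0.57) and 0.22 for Coro7 (SE 0.14, adjusted p = 0.46). Leaving out cKO replicate 4 brought Coro1b to 0.12 and Coro1c to 0.09, and leaving out WT replicate 2 brought Coro7 to 0.12. Among libraries with Xist the coronins' differences in mean log2 CPM were 0.37 (Coro1a), 0.36 (Coro1b), 0.25 (Coro1c) and 0.48 (Coro7), and among those without they were 0.06, 0.13, 0.10 and −0.14 in the same order. They were 0.06, 0.24, 0.01 and 0.06 for the lower mouse numbers and 0.37, 0.25, 0.34 and 0.28 for the higher ones.

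Coro1a was lowest in cKO replicate 1, where the correlation with GC content was −0.50, and highest in cKO replicate 4, where it was 0.42; the part of GC content in its spread was not tested. The longest transcript of Coro1a is 58.0% G and C, above that of 90.5% of the tested genes, and that of Fscn1 is 60.6%, above 96.9%. Those of Msn and Lcp1 are 47.7% and 47.4%, above 39.0% and 37.4% of the tested genes, and that of Rdx is 44.1%. When GC content and transcript length entered as offsets, the log2 fold changes were 0.26 for Coro1a (adjusted p = 0.16), 0.38 for Fscn1 (adjusted p = 0.035) and 0.52 for Msn (adjusted p = 0.0086), in a fit that called 4.9% of all genes tested. In that fit Aif1 had 0.21 (adjusted p = 0.14), against 0.34 without offsets, Lcp1 had 0.37 (adjusted p = 0.054) and Rdx −0.04 (adjusted p = 0.81). Coro7 overlaps Vasn in the reference annotation and Rdx overlaps Gm6981, which had from 65 to 220 and from 3 to 12 counts per library, and without a stated counting rule the assignment of reads in the overlaps is uncertain. Coro1c, Msn, Rdx and Lcp1 also overlap annotated genes that are not in the count table.

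Levels were compared between genes after division by the length of the longest annotated transcript in kb. On this scale Coro1a was highest, at 714 ± 157 CPM per kb in cKO and 613 ± 74.9 in WT (SD, n = 4 and 3). Fscn1 followed at 543 ± 87.4 in cKO and 448 ± 26.9 in WT, then Aif1, with libraries from 335 to 467 in cKO and from 298 to 340 in WT. A middle group held Lcp1, at 240.4 ± 24.4 in cKO and 186 ± 7.86 in WT, Msn, at 213 ± 13.2 in cKO and 149 ± 1.08 in WT, and Coro1b, at 183 ± 32.1 in cKO and 156 ± 14.3 in WT. Rdx, Coro1c and Coro7 lay between 18.2 and 26.1 CPM per kb in the mean of either group, and Ezr was lowest, at 2.05 ± 0.29 in cKO and 1.73 ± 0.31 in WT. In WT the ranges of neighbours in this order overlapped only for Coro1b with Msn and for Rdx with Coro1c. In cKO they overlapped for all neighbours except Aif1 with Lcp1, Coro1b with Rdx and Coro7 with Ezr, and Msn stood above Coro1b there and below it in WT. The order depends on the length used: with the mean length of all transcripts, Lcp1 and Coro1b, at 507 and 505 CPM per kb over all libraries, lay above Aif1 at 452. By that length Msn, at 294 CPM per kb, lay below Coro1b, and Rdx, at 34.0, lay below Coro1c at 82.8 and Coro7 at 63.7.

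Of 50 tested genes in 3 lists of related genes, 0 passed the threshold with edgeR's test and 13 had an unadjusted p under 0.05, 11 higher and 2 lower in cKO, beside 16.5% of all genes tested (9.65% higher and 6.87% lower). DESeq2 called 3, Wdr1, Rhoa and Pls3, beside the same 4.64% over all genes, and limma-voom called 0, beside 0.392%. Among the other coronins and coronin partners, 13 were tested, 7 had a fold change above 0 and the median log2 fold change was 0.14. Wdr1, which helps cofilin take filaments apart, averaged 490.2 ± 67.6 CPM over cKO mice and 336 ± 3.18 CPM over WT mice (SD, n = 4 and 3), with no overlap (log2 fold change 0.55, SE 0.12, adjusted p = 0.092). Gmfg, which removes Arp2/3 branches, had a log2 fold change of 0.52 (SE 0.16, adjusted p = 0.16), and Hcls1, the cortactin relative of blood cells, one of 0.37 (SE 0.12, adjusted p = 0.17). Trim67, below 3.1 CPM in every library, had one of −1.77 (SE 0.76, adjusted p = 0.27), which was −3.54 (adjusted p = 0.014) without cKO replicate 1.

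Among ERM kinases, regulators and membrane partners, 19 were tested, 12 had a fold change above 0 and the median was 0.07. Rhoa, the GTPase upstream of ERM phosphorylation, averaged 578 ± 54.6 CPM over cKO mice and 406 ± 8.97 CPM over WT mice (SD, n = 4 and 3), with no overlap (log2 fold change 0.51, SE 0.11, adjusted p = 0.075). Arhgdia had a log2 fold change of 0.44 (SE 0.14, adjusted p = 0.16), Ppp1cb, a catalytic subunit of protein phosphatase 1, one of 0.43 (SE 0.15, adjusted p = 0.20), and Stk24, a kinase of the Ste20 family, one of 0.24 (SE 0.10, adjusted p = 0.23). Among other bundlers and crosslinkers, 18 were tested, 14 had a fold change above 0 and the median was 0.23. Pls3, the plastin of tissues other than blood, averaged 17.1 ± 5.20 CPM over cKO mice and 9.30 ± 1.71 CPM over WT mice, with cKO replicate 4 at 9.78 CPM, among the WT libraries (log2 fold change 0.87, SE 0.25, adjusted p = 0.14). The others with the smallest p were Tagln2 (log2 fold change 0.59, SE 0.20), Marcksl1 (0.43, SE 0.14) and Actn4 (0.28, SE 0.11), with adjusted p from 0.17 to 0.23.

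**Figure D5:**
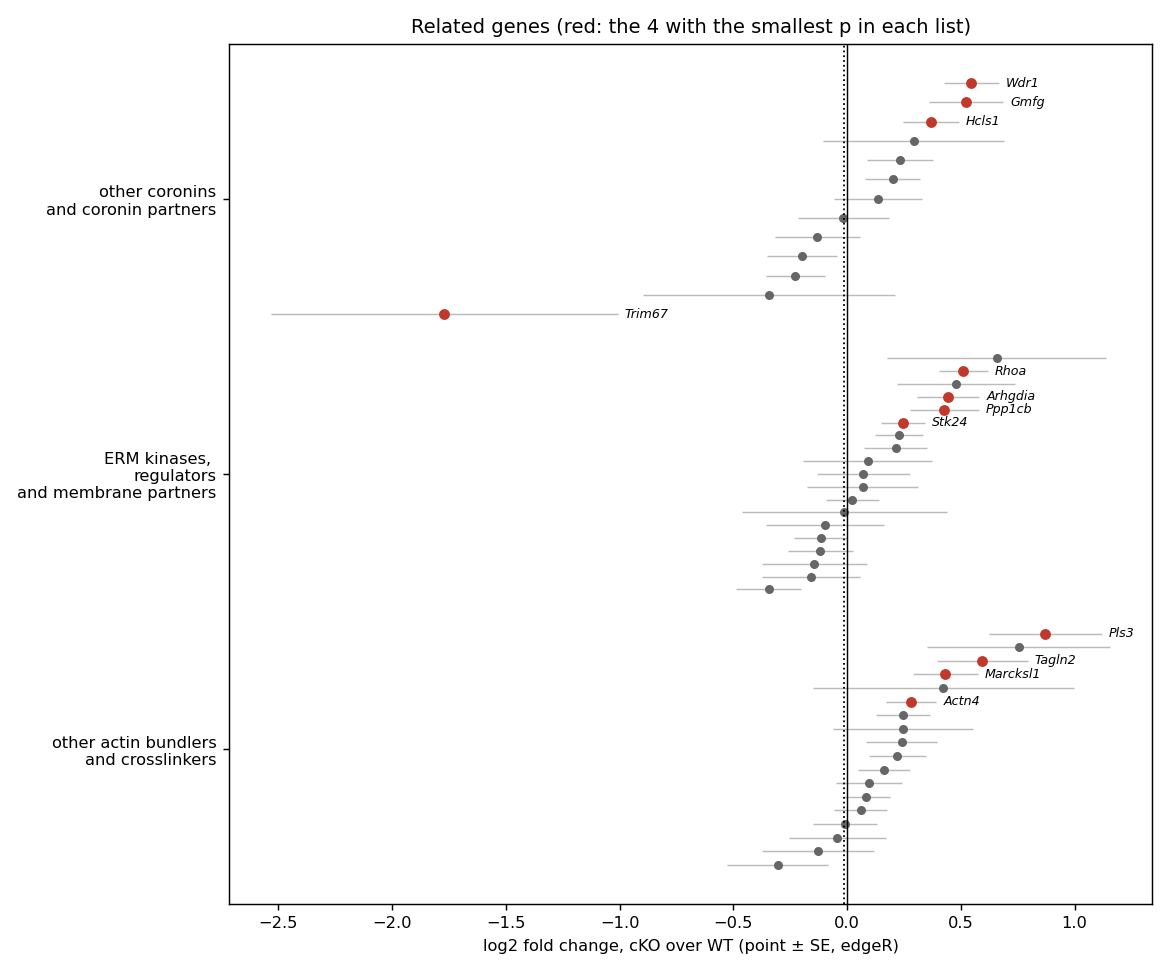
log2 fold change, cKO over WT, with SE from edgeR for each tested gene of the 3 related lists; red points are the 4 genes with the smallest p in each list and the dotted line is the median of all genes tested. Wdr1, Rhoa and Pls3 lie at 0.55, 0.51 and 0.87, and Trim67 stands apart at −1.77.

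For the member with the smallest p in each family, the genes with the most similar profile over the 7 libraries were sought among 9719 others. The measure was the root mean square distance between log2 CPM profiles centred at their own mean. Msn was nearest to Ywhae, which encodes a 14-3-3 protein (distance 0.035), Ctnna1, which encodes alpha-catenin (0.038), and Zfp706 (0.049), against a median distance of 0.32. Their log2 fold changes were 0.51, 0.56 and 0.52, of which Ctnna1 passed (adjusted p = 0.045). Lcp1 was nearest to Glrx3 (0.041), Mcts1 (0.051) and Zc4h2 (0.054), and Coro7 to Phc1 (0.054), Med25 (0.064) and Zfp385a (0.068). None of these 6 passed in edgeR's test. The genes were picked for the smallest distances, so distances below the median and fold changes near the member's own follow from the choice.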

How the data were processed

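RNA of sorted cortical microglia was measured in 4 cKO and 3 WT libraries, grouped by their titles. The authors deposited whole-number counts per gene symbol with no normalization. The submitters' processing notes name DRAGEN and, as genome build, GRCm39; annotation, read assignment and strandedness are not given in those sources. Of 23420 genes, filterByExpr of edgeR (version 4.0.16, R 4.3.3; least count 10, least total count 15) kept 11991. cKO was set against WT with edgeR's robust quasi-likelihood F test on TMM-scaled libraries with no covariate, and Benjamini-Hochberg adjustment covered every tested gene. The standard error is the log2 fold change divided by the square root of F; for log2 CPM the prior count was 2. Ratios and single genes were also tested by exact permutation over 35 divisions. The procedures were tested on simulated data. No 2 libraries of a group were near-copies (chi-square over degrees of freedom 18.8 to 98.3 between replicates). The p-values measure the spread between these mice; litter and batch are not in the labels.

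GENCODE M21 transcripts gave length and GC content (99.3% of genes tested), and RefSeq on GRCm38.p6 gave start-site windows and overlaps. The members and lists were chosen with earlier results of these data known. All 10 members are named; of each of 3 related lists, those past the threshold or, with none, the 4 with the smallest p; and the 3 genes most like one member per family, predicted genes left out. Alternatives were RLE and upper-quartile factors, DESeq2 (1.42.0), limma-voom (3.58.1), no robust option, 2 other filters, each library left out, blocks by replicate number or run of mouse numbers, Xist as covariate, and offsets for GC content and length (loess, span 0.3) without and with the replicate block.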

Additional observations from a re-analysis of the deposited data

Results flagged for a closer look

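The log2 ratio of Aif1 over Fscn1 was −2.16 in cKO replicate 2, against −1.98, −1.98 and −1.96 in cKO replicates 1, 3 and 4, which sets that library apart from the others of its group (gap over range 0.861, above the critical value of 0.829 for 4 samples). Of 22 such comparisons among cKO libraries this was the 1 that stood apart, and chance alone marks about 1 in 20.

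Coro7 was higher in both cKO libraries with Xist (99.8 and 102 CPM) than in both WT libraries with Xist (67.5 and 77.6 CPM). In the libraries without Xist it was lower in both cKO libraries (86.3 and 75.7 CPM) than in the 1 WT library (89.0 CPM). The differences in mean log2 CPM, 0.48 and −0.14, lie 0.62 apart; the difference between them was not tested, and the libraries were divided by Xist and not by a label. The cKO libraries with Xist had GC correlations of 0.16 and 0.42, and those without had −0.50 and −0.41, so Xist and GC correlation cannot be told apart here. All 10 members were searched for such a reversal and only Coro7 had it. How often chance gives it with so few libraries was not worked out.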

How the results depend on the processing

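The count of members past the threshold, 0 in the fit reported, was 2 with DESeq2, 1 with limma-voom, 1 without a filter, 1 with a block for mouse numbers, 3 with Xist as covariate, 2 with GC content and length offsets, and from 0 to 1 when a library was left out (1, Msn, without cKO replicate 1). The count of related genes past it, also 0, was 3 with DESeq2, 2 with the mouse numbers, 6 with Xist, 6 with the offsets, and from 0 to 4 when a library was left out (4 without cKO replicate 1, 1 without cKO replicate 4). That count stayed at 0 with limma-voom, RLE factors, upper-quartile factors, no robust option and either of the other filters. The count of members with an unadjusted p under 0.05, 3 in the fit reported, was 6 with Xist, 7 with the offsets, and from 3 to 7 when a library was left out. In the fit reported 16.5% of all genes tested had such a p, and that share was not computed for the other settings. A pairing of the libraries by replicate number was not assumed in the fit reported. The correlations of same-numbered deviations from the group means were 0.39, 0.069 and −0.17. Those between libraries of different number ranged from −0.37 to 0.38, and pairing was not tested further. With the replicate block, Coro1a, Coro1b and Coro1c had log2 fold changes of 0.07, 0.12 and 0.08, 1 member (Msn) and 4 related genes passed, and with the block and the offsets 2 members and 13 related genes passed and 7 members had an unadjusted p under 0.05. Over all genes 43 passed in the fit reported, 288 with the replicate block, 708 with the block and the offsets, 524 with DESeq2, 47 with limma-voom, 1055 with Xist, 588 with the offsets, 170 with the mouse numbers, 89 without a filter and from 4 to 142 when a library was left out. Besides Msn, the members that passed somewhere were Lcp1 (DESeq2 and Xist), Aif1 (Xist) and Fscn1 (both fits with offsets). Rdx changed sign with the replicate block (0.064) and ranged from −0.082 to 0.063 when a library was left out; no other member changed sign in the 19 alternatives. The cause of these changes was not tested.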
